A study of Castanea mollissima with 6 samples.

Results

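A set of 103 genes of Chinese chestnut (Castanea mollissima) was expressed at a low level in every r_1m root library and was listed at 0 in every r_3m root library. The genes were chosen from their measured values, as those with at least 1 FPKM in each of the 3 r_1m libraries, exactly 0 FPKM in each of the 3 r_3m libraries, and a log2(mean r_1m FPKM + 1) below 4, which is a mean below 15 FPKM. FPKM is a count of sequenced fragments divided by the length of the transcript and by the size of the library. The 103 genes are 0.303% of the 33991 gene IDs in the table. Because both groups entered the choice, the levels and differences of these genes are given as a description, with no test.

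RNA was sequenced from root tissue in 3 libraries whose titles carry r_1m and 3 whose titles carry r_3m. The labels give no genotype, age or treatment and do not spell out r_1m or r_3m, so the groups keep these names. Nothing in them tells if replicate libraries are separate plants, and p-values then cover only the spread of these libraries, possibly a technical one. The titles number the runs in 1 block per group, which means that any batch effect and the group cannot be told apart. The deposited table holds gene IDs without names, so no gene is given a function and the tissue could not be checked against marker genes. IDs are printed for the 2 highest of the 103 genes; the others are given by their rank of mean r_1m FPKM and by the first characters of the ID (Cm00 to Cm12).

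A root is built of many cell types, from the cap and meristem at the tip to the epidermis, cortex, endodermis and vascular tissue behind it. A transcript made in few cells, or only for a short stretch of development, is diluted by the RNA of all other cells and appears at a low level in RNA of the whole organ. In such bulk RNA, fewer cells of a type and less RNA per cell cannot be told apart. Chinese chestnut is a nut tree of the beech family whose roots live with ectomycorrhizal fungi.

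The choice held the 103 genes to low levels in r_1m, from 1 FPKM in each library up to a mean below 15 FPKM. Their mean FPKM over the r_1m libraries ran from 1.06 to 14.7, with a median of 2.53 and quartiles of 1.67 and 4.08. The mean was below 2 FPKM for 41 genes, from 2 to under 5 for 40, from 5 to under 10 for 13 and at least 10 for 9. For comparison, the 19074 genes with at least 1 FPKM in every r_1m library had a median of 14.6 FPKM, and 11.2% of them lay below the median of the 103 genes. Together the 103 genes held 391.9, 406.2 and 407.0 FPKM in r_1m replicates 1, 2 and 3, which was 0.0426%, 0.0442% and 0.0444% of the total FPKM of those libraries.

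**Figure D1:**
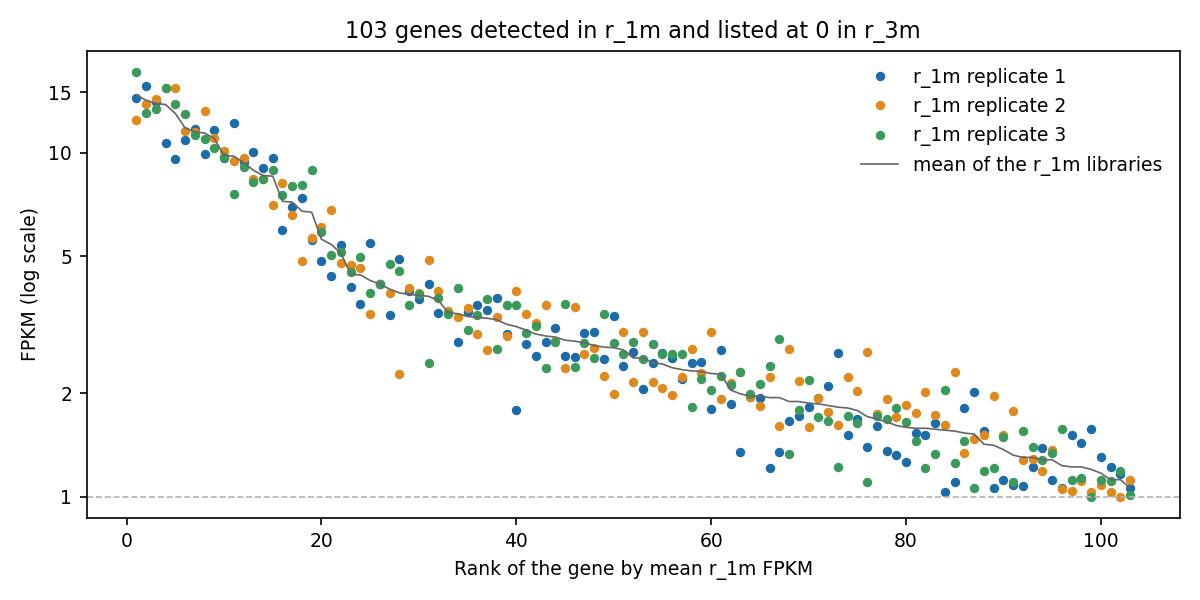
FPKM (log axis) of the 103 genes in each r_1m library, with the genes in order of their mean over the 3 libraries (grey line) and the minimum of 1 FPKM dashed. The means fall from 14.7 to 1.06 FPKM and the 3 libraries of most genes lie close together; all r_3m values are 0 and are not drawn.

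The highest of these genes, Cm04G00126.gene, had 14.43, 12.48 and 17.16 FPKM in r_1m replicates 1, 2 and 3 and 0 in each r_3m library. Its r_1m mean was 14.7 ± 2.35 FPKM (SD, n = 3), and the groups did not overlap. Both genes with adjacent ID numbers were at 0 in all 6 libraries. The second, Cm08G00075.gene, had 15.67, 13.87 and 13.03 FPKM in r_1m (14.2 ± 1.35 FPKM, SD, n = 3) and 0 in each r_3m library. The gene 1 ID below it was strongly expressed in both groups, with 175.28, 154.71 and 158.26 FPKM in r_1m and 214.66, 175.01 and 139.87 FPKM in r_3m, and was not called different. The gene 1 ID above Cm08G00075.gene had 5.5, 7.27 and 6.43 FPKM in r_1m and 0, 0.19 and 0.37 FPKM in r_3m, and fell by 2.65 on the log2 scale of FPKM + 1, with an SE of 0.16 (adjusted p in limma, 1.10e-05).

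Next in order were a pair of Cm03 genes with consecutive IDs, which also had similar levels. The gene at rank 3 had 14.08, 14.33 and 13.35 FPKM in r_1m, and the one at rank 4 had 10.65, 15.46 and 15.38 FPKM. A Cm05 gene at rank 5 had 9.59, 15.43 and 13.89 FPKM. At rank 7, a Cm01 gene was even across the libraries, with 11.71, 11.48 and 11.24 FPKM. At rank 10 a Cm08 gene had 9.62, 10.14 and 9.69 FPKM. Each of these genes was at 0 in all r_3m libraries, as the choice requires.

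The r_1m libraries gave similar values for most of the 103 genes. The highest of the 3 values was a median of 1.31 times the lowest. It was under 1.5 times the lowest for 76 genes and at least 2 times for 7. The most even gene was a Cm02 gene at rank 26, with 4.15, 4.15 and 4.14 FPKM. The least even, a Cm11 gene at rank 76, had 1.39, 2.63 and 1.1 FPKM, a ratio of 2.39. Replicate 1 held the highest value for 32 genes, replicate 2 for 44 and replicate 3 for 27.

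Set beside other genes of the same r_1m level, the 103 genes had a larger median SD between the r_1m libraries in each of the 6 level classes examined. For means of 1.5 to 2 FPKM the median SD of log2 FPKM was 0.251 for the 25 listed genes against 0.196 for the others. For means of 5 to 8 FPKM it was 0.234 for the 7 listed genes against 0.107. For means of 8 to 15 FPKM it was 0.135 for the 15 listed genes against 0.0811. The gap was smaller in the remaining classes. For 1 to 1.5 FPKM it was 0.207 against 0.175, and for 2 to 3 FPKM 0.202 against 0.18. For 3 to 5 FPKM it was 0.166 against 0.135. Fewer reads per unit of FPKM widen such an SD. The FPKM value of 1 read was taken from the smallest whole numbers of reads that give the r_1m values, described below, and is an upper limit. Its median in the class of 1.5 to 2 FPKM was 0.146 for the listed genes and 0.0857 for the others. The medians were 0.177 and 0.172 in the class of 5 to 8 FPKM, and 0.288 and 0.285 in that of 8 to 15 FPKM. For 1 to 1.5 FPKM they were 0.0868 and 0.0736, and for 2 to 3 FPKM 0.116 and 0.0949. For 3 to 5 FPKM they were 0.148 and 0.125. In the class of 8 to 15 FPKM the value was found for 86.7% of the listed genes and 68.7% of the others. The part of read number in the larger SD was not tested.

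Genes listed at 0 in r_3m were a small share of the genes at this level. Of the 9674 genes that met the r_1m part of the choice, the minimum and the upper limit, 9250 (95.6%) had a value above 0 in all r_3m libraries. Another 225 were at 0 in 1 r_3m library, 96 in 2 and the 103 (1.06%) in all 3. The share at 0 in all 3 was 2.84% of the 563 genes with an r_1m mean of 1 to 1.5 FPKM and 3.08% of the 813 with 1.5 to 2 FPKM. It was 1.64% of the 1280 genes of 2 to 3 FPKM and 0.994% of the 1911 genes of 3 to 5 FPKM. Among the 2040 genes of 5 to 8 FPKM it was 0.343%, and among the 3067 of 8 to 15 FPKM it was 0.489%. At 0 in all 3 libraries and in exactly 2 were 16 and 23 genes of 1 to 1.5 FPKM and 25 and 21 of 1.5 to 2 FPKM. The numbers were 21 and 23 for 2 to 3 FPKM and 19 and 14 for 3 to 5 FPKM. For 5 to 8 FPKM they were 7 and 8, and for 8 to 15 FPKM 15 and 7, with no steady trend.

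**Figure D2:**
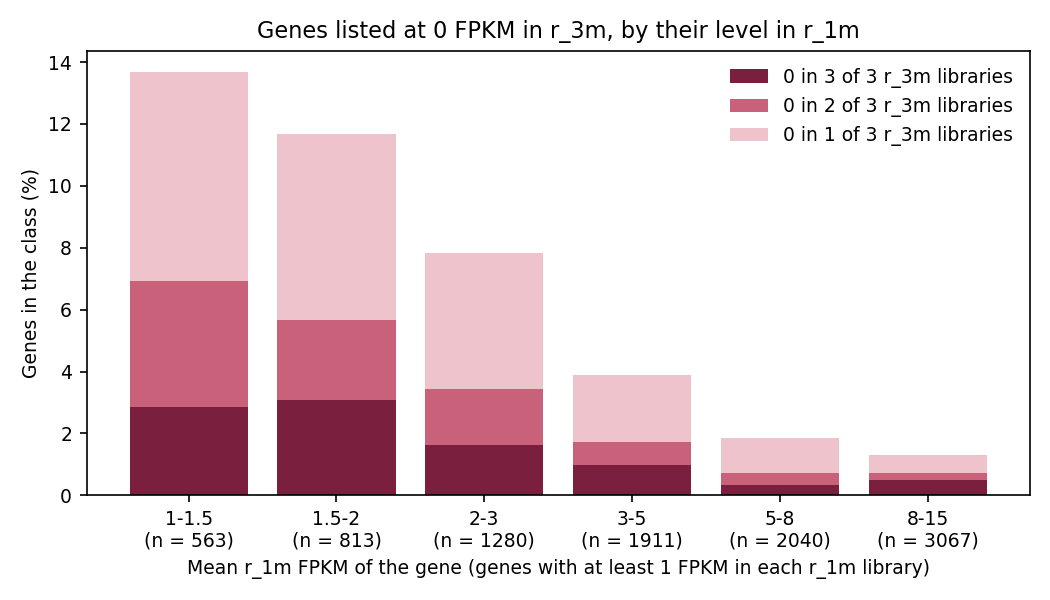
Share of genes (%) listed at 0 FPKM in 1, 2 or all 3 r_3m libraries, by class of mean r_1m FPKM, among genes with at least 1 FPKM in every r_1m library; n is the number of genes in a class. The darkest part, the 103 genes, falls from 2.84% and 3.08% in the lowest classes to 0.343% and 0.489% in the highest.

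Of the 96 genes at 0 in exactly 2 r_3m libraries, most had a small value in the remaining one. It ran from 0.04 to 1.83 FPKM, with a median of 0.28 FPKM, and was at least 1 FPKM for 7 genes. The library with the value was r_3m replicate 1 for 23 genes, replicate 2 for 37 and replicate 3 for 36. Replicate 1 was also the shallowest library, at 63.9% of the depth of the deepest, against 84.4% and 88.8% for r_3m replicates 2 and 3. The r_1m libraries were at 100%, 94.8% and 88.0%. These relative depths come from the step size of weakly expressed genes, and the absolute depths are unknown.

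To use values that took no part in the choice, the genes were chosen again from 5 libraries and read in the sixth. Without r_3m replicate 1, 126 genes were chosen, of which 103 (81.7%) were at 0 in that library. Without r_3m replicate 2 it was 103 of 140 genes (73.6%), and without r_3m replicate 3 it was 103 of 139 (74.1%). Of all 9674 genes that met the r_1m part of the choice, 2.86%, 2.38% and 2.26% were at 0 in r_3m replicates 1, 2 and 3. The genes not at 0 here are the 23, 37 and 36 genes of the preceding paragraph, so the r_3m shares restate those counts. The genes that were not at 0 in the library left out had medians of 0.27, 0.28 and 0.32 FPKM there, and at most 1.32, 1.83 and 1.38 FPKM, in the same order. Values of the left-out r_1m libraries were all above 0. With r_1m replicate 1 left out, 102 of 112 genes (91.1%) had at least 1 FPKM in it, with r_1m replicate 2 it was 102 of 109 (93.6%) and with r_1m replicate 3 it was 103 of 113 (91.2%). No share over all genes was set beside these r_1m shares, so they are a description only. The lowest value in a left-out r_1m library was 0.35 FPKM, in replicate 3, where the median was 2.40 FPKM.

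**Figure D3:**
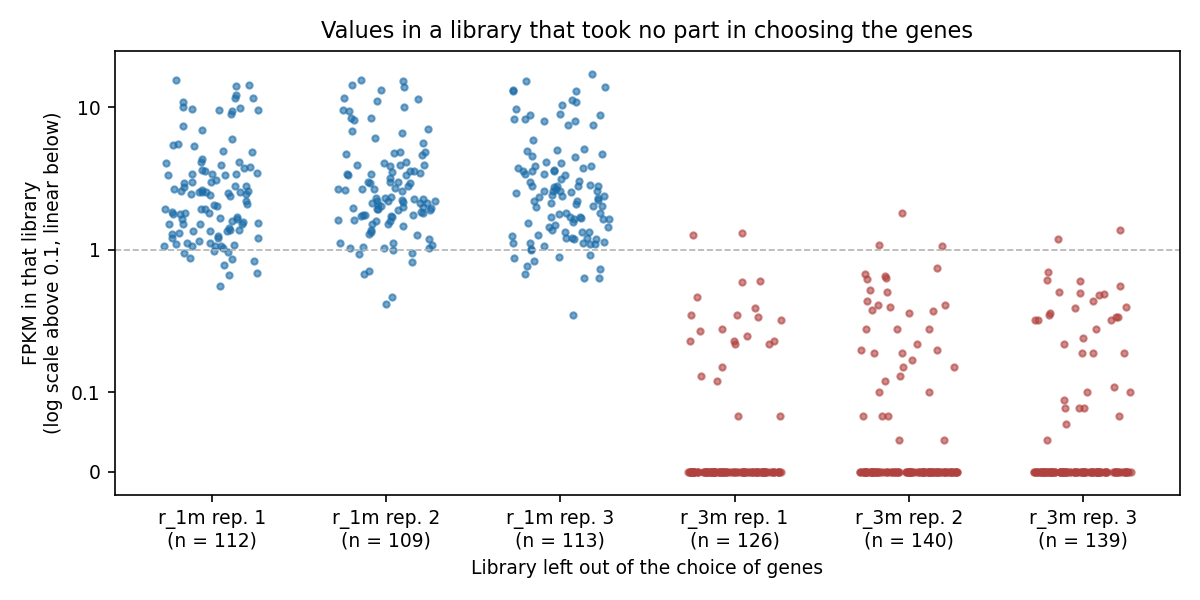
FPKM in each library of the genes that the other 5 libraries chose (n genes each; log axis above 0.1 FPKM and linear below, dashed line at 1 FPKM). In the r_1m libraries all values are above 0 and 91.1% to 93.6% are at 1 FPKM or more; in the r_3m libraries 73.6% to 81.7% are at 0 and the rest reach at most 1.83 FPKM.

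The reads behind these values could be bounded from below, if each value is a whole number of reads times 1 step per gene. FPKM of a gene moves in steps of 1 sequenced fragment, called a read here, and for 98 of the 103 genes the smallest whole numbers of reads that give the 3 r_1m values were found. They summed to a median of 59 reads over the 3 r_1m libraries, with 78 genes at 30 or more. In libraries simulated with whole reads and 1 step per gene, the smallest numbers were the true ones for 36.1% of 1803 genes. That they never exceeded the true ones there follows from the method. They are read as minimum counts on the same condition, which could not be checked because the read counter is not given. That reading also needs accurate relative depths. In the real libraries the fitted depths misfitted a pair of libraries by up to 0.297%, and the effect of this on the minimum counts was not tested. At the r_1m level and the depths of the r_3m libraries, a median of at least 49.4 reads over the 3 r_3m libraries would have been expected, where the table lists 0. A count of 0 allows up to 3 reads, taken over the group. Against that limit, Cm04G00126.gene, with at least 22, 18 and 23 reads in r_1m, was at least 17.6-fold lower in r_3m, and Cm08G00075.gene, with at least 37, 31 and 27 reads, was at least 26.5-fold lower. These limits allow for the counting error of the 0 in r_3m, but not for that of the r_1m reads or for differences between plants. Nor do they allow for the choice of these genes by their 0 in r_3m, so they are a description and no test of absence.

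A pair of the 103 genes may rest on very few reads. The smallest solution for a Cm02 gene at rank 93, with 1.22, 1.29 and 1.39 FPKM, was 1 read in each r_1m library. For a Cm11 gene at rank 85, with 1.1, 2.31 and 1.25 FPKM, it was 1, 2 and 1 reads. Absence of the gene at rank 93 from r_3m was not detectable at this depth if these minimum counts are the true ones. On the same condition the gene at rank 85 was barely better placed. Its expected r_3m reads were 3.35, which bounds it at only 1.12-fold lower.

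The 103 genes were spread over all 13 ID prefixes, most densely over Cm04. That prefix held 16 of them, or 5.84 per 1000 of its gene IDs, and Cm03 held 13 (4.67 per 1000). The other prefixes held 2.06 to 3.65 per 1000. Counted per 1000 genes of the same r_1m level, Cm04 held 19.8, Cm03 17.3, Cm00 14.8 and Cm02 13.9, and the lowest value was 6.94 for Cm06. No test of these counts was made.

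Several of the 103 genes were adjacent by ID number. A total of 10 (9.71%) lay 1 ID from another of the 103, where 0.572% of all other genes and 0.481% of the other genes of the same r_1m level did. Within 10 IDs it was 23 genes (22.3%), against 5.34% and 4.95%. This was not particular to the 103 genes: of the 67 genes with the opposite pattern, described at the end, 5.97% lay 1 ID and 22.4% within 10 IDs of another of the 67. IDs no more than 2 apart joined 12 genes in 5 groups, of which 3 were Cm04 groups, so 8 of the 16 Cm04 genes lay in such groups. ID numbers are read here as an order of genes, which was not checked against a genome.

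The largest of these groups held 4 Cm04 genes within 5 consecutive IDs, all at low and similar levels. Their r_1m values were 1.38, 1.19 and 1.28 FPKM at rank 94, 1.57, 1.03 and 1.0 at rank 99, 1.94, 1.94 and 1.7 at rank 71 and 1.71, 2.17 and 1.78 at rank 69, in ID order. The ID in the middle of the group was close to 0 in both groups, with 0.09, 0.06 and 0.08 FPKM in r_1m and 0.11, 0 and 0 FPKM in r_3m. The IDs that border the group were near or at 0 throughout.

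In the other Cm04 groups the listed genes lay next to a more strongly expressed gene that was also lower in r_3m. Between the genes at ranks 48 and 73 lay a gene with 27.54, 29.04 and 29.52 FPKM in r_1m and 0 in each r_3m library. The consecutive genes at rank 21 (4.37, 6.82 and 5.05 FPKM) and rank 67 (1.35, 1.6 and 2.87 FPKM) lay between a gene with 26.8, 25.52 and 25.75 FPKM in r_1m and 0 in r_3m and a gene that went from 70.0, 74.67 and 72.35 FPKM in r_1m to 4.77, 3.86 and 3.66 FPKM in r_3m. These 4 adjacent Cm04 IDs were all far lower in r_3m, but for the listed genes the choice requires this. The gene with 26.8, 25.52 and 25.75 FPKM also has the pattern of the choice, at a level above the upper limit. The consecutive Cm12 genes at ranks 13 and 11 had 10.06, 8.38 and 8.24 FPKM and 12.21, 9.48 and 7.59 FPKM in r_1m; the IDs on either side were at or below 1.01 FPKM in every library. The Cm03 pair at ranks 3 and 4 had neighbours of the opposite kind, which went from 11.87, 10.54 and 13.02 to 19.27, 24.28 and 25.21 FPKM and from 2.83, 2.24 and 2.77 to 4.14, 8.85 and 8.55 FPKM.

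**Figure D4:**
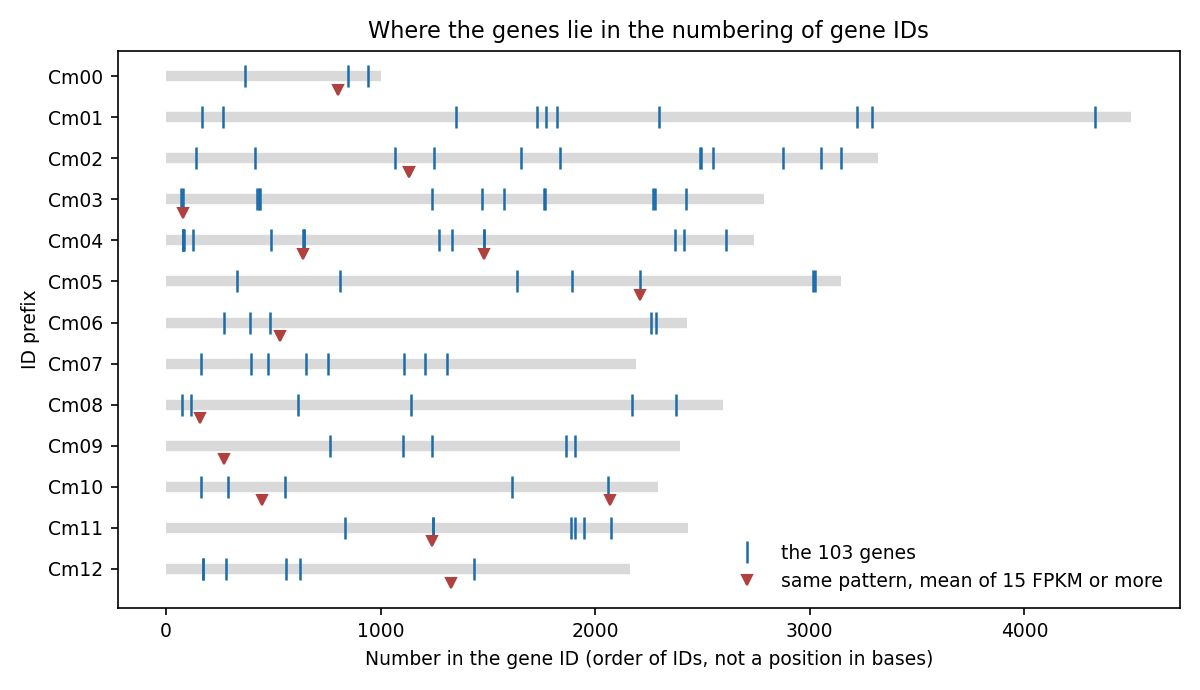
Place of the 103 genes (blue ticks) in the numbering of gene IDs, one grey bar per ID prefix; red triangles mark the 14 genes with the same pattern and a mean r_1m level at or above the upper limit of 15 FPKM. Cm04, with 16 of the 103 genes, holds 3 of the 5 groups of IDs no more than 2 apart.

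Genes next to the 103 by ID number took no part in the choice, and a larger share of them than of all tested genes was at least 4-fold lower in r_3m; the difference in shares itself was not tested. Of 194 such genes, 103 had a mean of at least 1 FPKM and were tested. In that fit over 20038 genes 33.6% were called lower and 33.9% higher in r_3m (limma, adjusted p below 0.05). Among the 103 neighbours 45 (43.7%) were called lower, 36 (35.0%) higher and 22 were not called. Their median log2 fold change was -0.17, against 0.02 over all tested genes; it was -0.07 without r_1m replicate 1 and also at a minimum mean of 5 FPKM, and -0.11 without r_1m replicate 2 and on the TPM scale. The difference lay mostly in large changes: 13 neighbours (12.6%) were called and at least 4-fold lower, where 4.70% of all tested genes were, and 1 neighbour (0.971%) was at least 4-fold higher, where 3.65% were. With the r_1m libraries averaged as 1 sample, 29 neighbours (28.2%) were called lower and 18 (17.5%) higher, where 18.1% and 17.0% of all tested genes were. In that fit only the r_3m libraries give an estimate of spread, and the single r_1m sample is assumed to share it. A likeness of neighbouring IDs across all genes was already known from these data, so these counts are not independent support for it.

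Of the 13 neighbours at least 4-fold lower, 4 had the pattern of the 103 genes at a level above the upper limit and were at 0 in r_3m. One was a Cm05 gene next to rank 5, with 33.75, 34.77 and 33.45 FPKM in r_1m. Another was a Cm03 gene next to rank 16, with 22.97, 19.18 and 22.93 FPKM. The remaining 2 are the Cm04 genes already described. Without these 4, 9 of 99 neighbours (9.09%) were at least 4-fold lower.

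Some of the other neighbours were among the more abundant root transcripts. A Cm07 gene next to rank 8 (9.94, 13.18 and 10.95 FPKM) went from 504.61, 535.59 and 558.77 FPKM in r_1m to 50.24, 44.51 and 43.71 FPKM in r_3m, which is -3.50 on the log2 scale with an SE of 0.08 (adjusted p in limma, 1.65e-07). A Cm02 gene next to rank 63 went from 585.43, 566.44 and 567.32 to 86.19, 69.99 and 96.14 FPKM. Cm07 genes next to ranks 56 and 102 went from 427.67, 438.33 and 443.71 to 109.24, 89.22 and 130.11 FPKM and from 180.84, 174.63 and 171.57 to 26.53, 19.47 and 31.98 FPKM. In each of these 4 cases the abundant neighbour kept a value above 0 in r_3m. The 0 of the low-level gene beside it is required by the choice. A less abundant Cm08 gene next to rank 35 likewise went from 124.92, 131.53 and 134.51 to 27.29, 18.87 and 16.36 FPKM. The 1 neighbour at least 4-fold higher, a Cm04 gene next to rank 101, went from 0.71, 0.38 and 0.61 to 16.69, 19.41 and 20.42 FPKM. How reads of overlapping or near-identical genes were counted is not given in the sources used here, and shared reads were not tested.

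**Figure D5:**
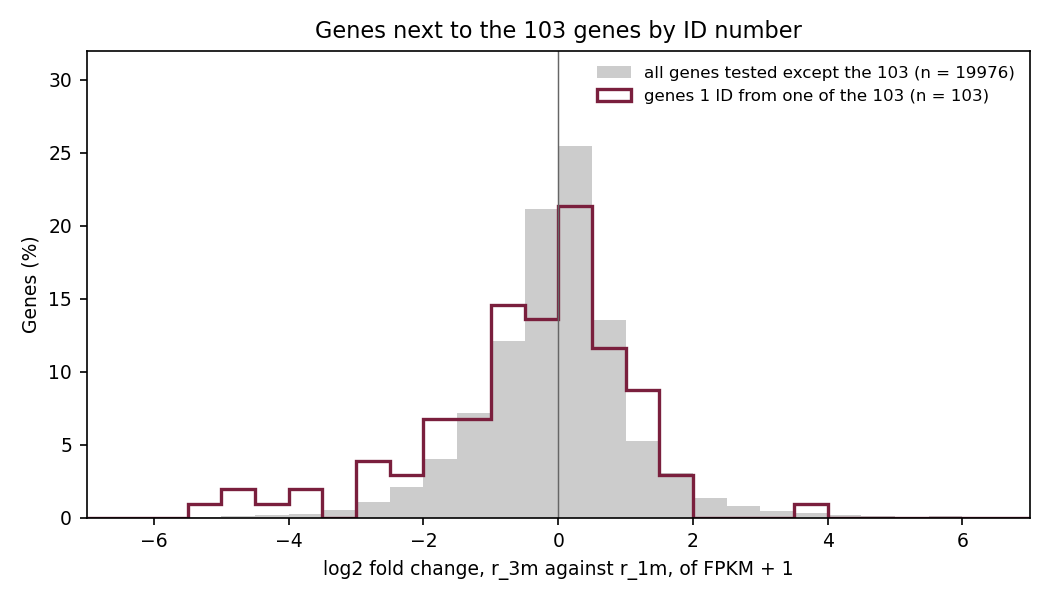
Distribution of log2 fold changes (r_3m against r_1m, FPKM + 1) of the 103 tested genes 1 ID from one of the listed genes (line) and of the 19976 tested genes outside the list (grey), in % of each set. The line has 13 called genes (12.6%) at a fall of at least 4-fold and 1 at such a rise, and its median is -0.17.

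The listed genes themselves were called lower wherever they could be tested, which their choice brings about. A mean of at least 1 FPKM over the 6 libraries was needed for the test, and 62 of the 103 genes reached it only through r_1m; the other 41 were not tested. All 62 were called lower, beside a share of 33.6% of all tested genes. Their values did not overlap between the groups, by definition, where 36.7% of all tested genes were lower without overlap. The log2 fold changes of the 62 ran from -3.96 to -1.60 with a median of -2.23, on a scale that understates the change of weakly expressed genes. Nothing is read from these calls.

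The limits of the choice cut through a continuous range. Just below the upper limit stood Cm04G00126.gene at a mean of 14.69 FPKM, and just above it a Cm02 gene with 15.28, 15.66 and 15.73 FPKM in r_1m and 0 in r_3m. In all, 14 genes had the same pattern above the limit, up to a Cm05 gene with a mean of 33.99 FPKM. At the lower limit, 12 of the 103 genes had a lowest r_1m value under 1.1 FPKM, and 8 genes at 0 in r_3m missed the limit with a lowest value from 0.9 to under 1 FPKM. The nearest was a Cm01 gene with 0.98, 1.5 and 1.01 FPKM. On the r_3m side, 23 genes missed the list with a highest value of at most 0.1 FPKM, among them a Cm04 gene with 3.34, 3.28 and 3.2 FPKM in r_1m and 0, 0.04 and 0 FPKM in r_3m.

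The opposite pattern, with a minimum of 1 FPKM in all r_3m libraries, 0 in all r_1m libraries and the same upper limit, held for 67 genes. That was 0.761% of the 8802 genes of the same r_3m level, where the 103 genes were 1.06% of those of their r_1m level. The 67 genes had a median of 3.55 FPKM, against 2.53 FPKM for the 103 genes. Their highest library was a median of 1.57 times their lowest, against 1.31 times. A ratio of at least 2 between libraries was found for 23 of the 67 genes and for 7 of the 103. Of the 56 tested genes 1 ID from one of the 67, 29 (51.8%) were called higher and 13 (23.2%) lower. Over all tested genes 33.9% were called higher and 33.6% lower. The difference between both sets was not tested.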

How the data were processed

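RNA of 6 root libraries, 3 r_1m and 3 r_3m, was analysed from 1 table that the authors deposited as FPKM, with 33991 gene IDs. The submitters' processing notes name FastQC 0.11.9, Trimmomatic and STAR 2.7.10b. A read counter, a genome build, an annotation and a rule for multi-mapped reads are, in the sources used here, not given. Columns were matched to samples by the run number in the title, and 207 other columns were not used. Replicates were numbered in record order and pair nothing.

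The members and lists were chosen with earlier results of these data known. By the rule for named genes, the 2 members with the highest r_1m mean are printed by ID; members and neighbours given by rank, prefix or size of change were chosen after their values were seen. Gene lists by product name and marker lists could not be run, as no names were paired with the IDs.

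Fold changes and calls come from limma 3.58.1 (R 4.3.3) on log2(FPKM + 1), with a mean-variance trend, over genes averaging 1 FPKM or more, two-sided with Benjamini-Hochberg adjustment; calls were made at adjusted p below 0.05. Relative depths were found from the ratios of values between 0.3 and 2 FPKM. Minimum reads are the smallest whole numbers, up to 60 per library, that give a gene's values within 0.2 of a read and within rounding. Both steps were tested on simulated data, where the depths were recovered within 0.0554%. In the real data the largest misfit of the fitted depths to a pair of libraries was 0.297%. Alternatives were other pseudocounts, filters, scalings, limits of the choice and each library left out; averaging the r_1m libraries was added after seeing the data.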

Additional observations from a re-analysis of the deposited data

How the results depend on the processing

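The number of genes chosen was 185 at a minimum of 0.5 FPKM in r_1m and 55 at a minimum of 2 FPKM; allowing up to 0.1 FPKM in r_3m gave 126, no upper limit 117 and the TPM scale 106, of which 99 were among the 103. Leaving out 1 library gave 109 to 140 genes. The members called lower numbered 103 with no filter and 9 at a minimum mean of 5 FPKM, and 51 to 77 with 1 library left out. Every member tested was called lower in each of these fits, which the choice brings about. Of all tested genes, 27.8%, 33.3% and 28.8% to 36.7% were called lower there, in the same order. For genes 1 ID away, the counts called lower and higher with 1 library left out were 38 to 47 (38.4% to 45.6%) and 29 to 36 (29.3% to 35.0%). Of all tested genes, 28.8% to 36.7% and 29.2% to 35.5% were called lower and higher there. For genes up to 2 IDs away the counts were 80 (42.6%) and 60 (31.9%), against 33.6% and 33.9%. No difference in these shares was tested. The median log2 fold change of the neighbours was -0.19 at a pseudocount of 0.1 and after median-of-ratios scaling, and -0.16 with no filter and for 2 IDs. It was -0.07 at a minimum mean of 5 FPKM and -0.11 on the TPM scale, where the median of all tested genes was 0.07. With 1 library left out it ran from -0.21 to -0.07. Neighbours at least 4-fold lower were 20, and higher 4, at a pseudocount of 0.1. Over all 20038 tested genes these counts also rose, from 942 to 1572 lower and from 732 to 1070 higher. With the r_1m libraries averaged as 1 sample, chosen after seeing the data, 3408 genes were called higher and 3634 lower over all, and 29 and 18 neighbours lower and higher. Over all genes, the calls ranged from 5842 to 7106 higher and from 5769 to 7355 lower when 1 library was left out. Requiring whole reads within 0.1 left 71 members with minimum counts, with a median of 45 reads. No paired analysis was possible because no number in the labels links an r_1m to an r_3m library. Depth limits what 0 means: it allows 3 reads over the r_3m libraries.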
